A study of Mus musculus with 12 samples.

Results

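The genes described here are those that cut, inhibit the cutting of, or chemically finish the extracellular matrix. They are the matrix metalloproteinases (Mmp), their tissue inhibitors (Timp), the ADAMTS proteases and ADAMTS-like proteins (Adamts, Adamtsl), the lysyl oxidases (Lox, Loxl), the lysyl hydroxylases (Plod) and the prolyl 4-hydroxylase alpha subunits (P4ha). Members were taken by symbol alone from the 20775 genes listed in both expression tables, which gave 62 genes: 23 Mmp, 4 Timp, 19 Adamts, 5 Adamtsl, 5 Lox or Loxl, 3 Plod and 3 P4ha. The rule itself used no measured value.

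RNA was sequenced from mice on a C57BL/6 background in which Med30, a core subunit of the Mediator complex, was deleted in cardiomyocytes. The first comparison used whole hearts of E10.5 embryos, 3 Ctrl and 3 MED30-cKO, in which floxed Med30 was deleted by a Cre under the cardiac troponin T promoter. The second used cardiomyocytes isolated from mice 3 months of age, 4 weeks after tamoxifen, 3 Ctrl and 3 MED30-icKO, in which an alpha-MHC-driven MerCreMer deleted the same floxed allele. Ctrl samples carry the label wild type, while the study describes controls without Cre, so that an effect of Cre itself cannot be told apart from the loss of Med30. Both promoters drive Cre in cardiomyocytes, so other cell types in an E10.5 heart, or left in an adult preparation of isolated cells (labelled heart), were not targeted. No label states that the 3 samples of a group came from separate animals, so p-values measure the spread between these samples, which may be technical.

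Fibrillar collagens are hydroxylated on prolines by P4ha-containing enzymes and on lysines by Plod enzymes inside the cell, trimmed outside it by ADAMTS propeptidases and others, and crosslinked by lysyl oxidases. MMPs and ADAMTS proteases then cut collagens, proteoglycans and basement membranes, and TIMPs bind the catalytic site of many of them. In the heart, fibroblasts are the best known source of most of these proteins, and the balance of MMPs and TIMPs is known for its part in the remodelling of the failing ventricle.

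Values are reads per kilobase of transcript scaled to the mapped reads of the library (RPKM), so levels are per transcript length and may be set side by side between genes of 1 stage. Steps between low values put the depth of the 12 libraries at an estimated 11.96 M to 19.98 M counted reads. At those depths 57.1% to 66.2% of the low values of a library lay within 0.1 of a whole read, so the depths are approximate. The RPKM of 3 reads was used as the floor for each gene, and it covers counting error only. Med30 checked the labels: it was 10.6, 13.3 and 11.3 RPKM in the E10.5 Ctrl samples and 1.38, 2.02 and 1.004 in the cKO samples. In adult cardiomyocytes it was 7.66, 7.45 and 7.66 RPKM in Ctrl and 3.81, 3.16 and 1.82 in icKO. In the adult libraries the 20 most abundant genes took 24.8% to 25.4% of the summed RPKM in Ctrl and 11.5% to 13.1% in icKO. Over all 9517 adult genes tested the median log2 fold change was 0.57 on RPKM as deposited and 0.03 after median-ratio scaling, which sets the typical gene of every sample to the same level. Both scalings are therefore given for each adult call, and a fold change near 0.57 on deposited RPKM is that of the median gene.

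The promoters of 5 members with the same call under both scalings in adult cardiomyocytes are shown, since the results turn on them: the 3 largest rises and the falls among members with an entry in the RefSeq promoter table used here (build GRCm38.p6). They were chosen after their values were seen. Of the 62 members, 42 had an entry, and each window runs from 250 bases before the annotated start to 50 bases after it. The Timp2 window lies at chr11:118355362-118355661 on the minus strand, Mmp23 at chr4:155653335-155653634 on the minus strand, Timp1 at chrX:20869916-20870215 on the plus strand, Mmp15 at chr8:95352046-95352345 on the plus strand and Adamtsl4 at chr3:95687868-95688167 on the minus strand. Sequences are written 5′ to 3′ on the strand of the gene, and capitals mark each match to a GC box, an AP-1 site or a TATA box.
Timp2: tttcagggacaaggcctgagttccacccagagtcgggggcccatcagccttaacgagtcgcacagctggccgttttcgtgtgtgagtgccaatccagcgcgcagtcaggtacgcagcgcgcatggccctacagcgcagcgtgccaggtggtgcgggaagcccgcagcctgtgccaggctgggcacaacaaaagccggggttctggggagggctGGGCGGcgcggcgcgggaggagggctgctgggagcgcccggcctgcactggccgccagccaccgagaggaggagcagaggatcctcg
Mmp23: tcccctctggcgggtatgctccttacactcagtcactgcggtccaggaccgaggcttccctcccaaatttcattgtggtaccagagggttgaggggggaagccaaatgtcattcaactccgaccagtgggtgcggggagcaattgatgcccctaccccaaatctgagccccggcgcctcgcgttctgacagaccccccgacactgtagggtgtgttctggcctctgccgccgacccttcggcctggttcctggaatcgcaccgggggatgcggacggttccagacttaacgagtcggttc
Timp1: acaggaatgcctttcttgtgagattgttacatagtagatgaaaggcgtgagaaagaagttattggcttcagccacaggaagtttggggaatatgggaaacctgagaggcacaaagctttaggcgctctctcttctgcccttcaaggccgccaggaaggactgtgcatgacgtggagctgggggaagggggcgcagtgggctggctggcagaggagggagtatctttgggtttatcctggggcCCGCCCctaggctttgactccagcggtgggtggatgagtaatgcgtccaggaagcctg
Mmp15: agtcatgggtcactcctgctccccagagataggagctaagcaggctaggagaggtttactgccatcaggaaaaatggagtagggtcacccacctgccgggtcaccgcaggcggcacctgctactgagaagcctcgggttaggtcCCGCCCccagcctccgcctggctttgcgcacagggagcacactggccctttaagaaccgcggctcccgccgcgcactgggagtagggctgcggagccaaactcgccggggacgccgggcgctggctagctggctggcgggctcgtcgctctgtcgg
Adamtsl4: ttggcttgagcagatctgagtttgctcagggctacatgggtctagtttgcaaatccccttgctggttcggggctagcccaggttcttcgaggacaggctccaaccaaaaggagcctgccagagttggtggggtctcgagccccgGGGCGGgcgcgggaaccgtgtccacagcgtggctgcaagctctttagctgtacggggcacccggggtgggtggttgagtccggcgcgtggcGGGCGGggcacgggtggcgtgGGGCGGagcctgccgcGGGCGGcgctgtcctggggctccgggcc

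The letters searched on both strands were GGGCGG for the GC box, TGANTCA for the AP-1 site and TATAAA for the TATA box, and none of the 3 contains another. In these 5 windows the capitals are all GC boxes: 1 each in Timp2, Timp1 and Mmp15, 4 in Adamtsl4, and none in Mmp23. Among the member promoters 61.9% (26 of 42) held a GC box, against 35.7% of all 32851 windows in the table, which holds several windows for some genes. The median share of G and C letters was 63.5% in the member promoters and 52.7% in all windows, and motif shares were not adjusted for it. A TATA box stood in 31.0% of member promoters and 13.6% of all windows. TGANTCA stood in 7 member promoters (16.7%, against 7.81% of all windows), those of Mmp1a, Mmp1b, Mmp3, Mmp7, Mmp10, Mmp13 and Mmp20, and all 7 of these genes were at or under the floor in every E10.5 sample. In adult cardiomyocytes the same held for all of them but Mmp3, which was 0.296, 0.199 and 0.046 RPKM in icKO. A match describes the letters and not a bound site.

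In adult cardiomyocytes 4 weeks after tamoxifen, 23 members passed the filter of a mean RPKM above 1, and 39 did not. Of the 23, 12 were called higher in icKO and 3 lower, by limma (adjusted p under 0.05, with the log2 fold change past 1 in size), and 8 were neither. Over all genes tested, 28.0% were called higher and 8.45% lower. After median-ratio scaling 21 members passed the filter, 7 were called higher and 3 lower, and over all genes 11.3% were called higher and 15.9% lower. The median log2 fold change of the members was 1.11, against 0.57 over all genes, and 0.43 against 0.03 after scaling. In 15 of the 23 every icKO sample lay above every Ctrl sample and in 3 every icKO sample lay below, against 62.0% and 18.9% of all genes tested. Of the 23, 16 had a mean above 1 in both groups, 6 passed through icKO alone and 1 through Ctrl alone, so the last 7 could pass only because the groups differed. All 6 were among those called higher and the 1 among those called lower, so the counts and the median above include them. Of the 16, Timp2, Mmp24, Adamtsl5, Loxl3, Plod3 and P4ha2 were called higher, and Mmp15 and Adamtsl4 lower. After scaling Loxl3, Plod3 and P4ha2 were no longer called. The plot of adult values by sample shows these 23 genes.

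**Figure D1:**
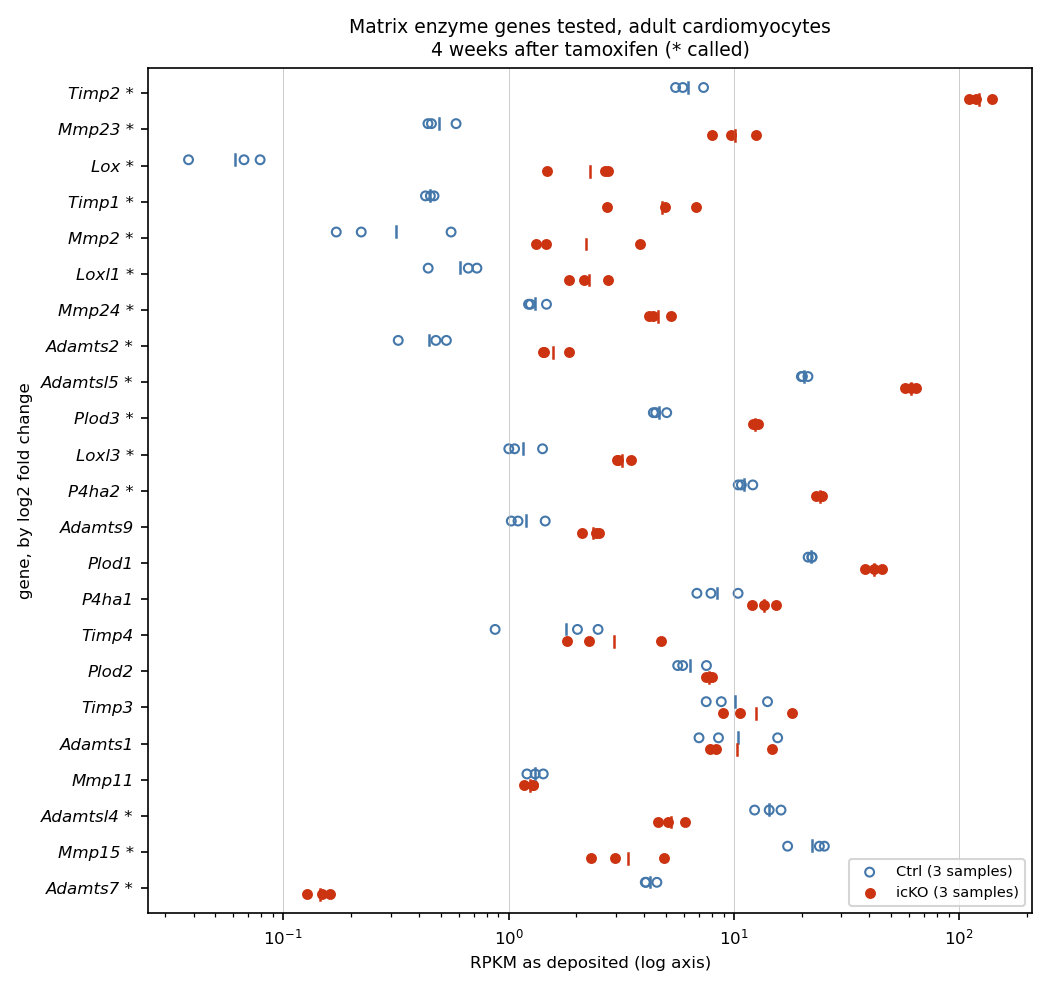
RPKM (log axis) of the 23 members tested in adult cardiomyocytes, ordered by log2 fold change, with 3 Ctrl samples as open circles, 3 icKO samples as filled circles and each group's mean as a short line. An asterisk marks the 15 called genes, in which the groups lie apart. Timp2 reached 110.45 to 139.7 RPKM in icKO, while Adamts7 lay at 0.13 to 0.16.

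The inhibitors held the member with the largest log2 fold change. Timp2, which inhibits MMPs and also helps MMP14 to activate pro-MMP2, was 5.94, 7.34 and 5.52 RPKM in Ctrl and 139.7, 118 and 110.45 RPKM in icKO. The lowest icKO sample was far above the highest Ctrl sample, and the mean rose 19.6-fold (log2 fold change 4.27, SE 0.13, limma adjusted p = 8.11e-08, and 3.74 after scaling). The summed RPKM of the 62 members went from 154 ± 13.5 in Ctrl to 361 ± 12.6 in icKO (SD, n = 3). With Timp2 left out, the sum went from 148 ± 12.7 to 238.5 ± 2.78, a ratio of 1.61. Both sums are on RPKM as deposited, where the typical adult gene tested rose by 0.57 in log2. They were not recomputed after scaling, which would lower icKO beside Ctrl. The sum without Timp2 therefore cannot tell a rise of the other members from that shift. Timp1, an inhibitor known to be induced by cytokines and injury, was 0.43, 0.45 and 0.47 RPKM in Ctrl and 6.77, 4.94 and 2.74 in icKO. It rose 10.7-fold (3.07, SE 0.30, adjusted p = 1.44e-05, and 2.58 after scaling), and it passed the filter through icKO alone.

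The other inhibitors were not called. Timp3, which binds to the matrix itself, was 8.80, 14.1 and 7.54 RPKM in Ctrl and 8.94, 10.6 and 18.1 in icKO, with overlapping groups and a log2 fold change of 0.29 (SE 0.29, adjusted p = 0.371) that turned to -0.25 after scaling. Timp4, the inhibitor with the most restricted expression and known from heart, was 0.87, 2.02 and 2.497 RPKM in Ctrl and 1.83, 2.27 and 4.76 in icKO, also overlapping (0.68, SE 0.42, adjusted p = 0.163). Exons of Timp3 and Timp4 overlap those of the synapsin genes Syn3 and Syn2 on the opposite strand, and whether counting used strand is not given in the sources used here. In the adult Ctrl samples the order of mean levels was Timp3, Timp2, Timp4 and Timp1, and in icKO it was Timp2, Timp3, Timp1 and Timp4. The Ctrl ranges of Timp3 and Timp2 lay apart by a narrow margin (7.54 against 7.34), and the icKO ranges of Timp1 and Timp4 overlapped.

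Among the metalloproteinases 3 rose and 1 fell. Mmp23, a type II membrane MMP with an unusual domain order, was 0.58, 0.44 and 0.46 RPKM in Ctrl and 9.69, 12.6 and 7.998 in icKO. All icKO samples were above all Ctrl samples, and the mean rose 20.4-fold (log2 fold change 4.09, SE 0.19, limma adjusted p = 3.98e-07, and 3.59 after scaling), with a Ctrl mean under the filter. Mmp24, a membrane-type MMP known from the nervous system, was 1.23, 1.25 and 1.47 RPKM in Ctrl and 4.36, 5.27 and 4.22 in icKO (3.50-fold, log2 fold change 1.73, SE 0.15, adjusted p = 7.12e-06, and 1.22 after scaling). Exons of Mmp24 overlap BC029722 on the opposite strand.

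Mmp2, the gelatinase of fibroblasts and other stromal cells, was 0.17, 0.22 and 0.56 RPKM in Ctrl and 3.83, 1.32 and 1.47 in icKO. The groups did not overlap, but icKO replicate 1 was far above the other icKO samples. The mean rose 6.97-fold (2.42, SE 0.46, adjusted p = 0.0011, and 1.96 after scaling), and Mmp2 passed the filter through icKO alone. Without icKO replicate 1 the ratio of means was 4.404 and the mean over 5 samples was 0.748 RPKM, under the filter, so Mmp2 was then not tested. In the fit with no filter and median-ratio scaling, its adjusted p was 0.059 and the call was lost. Mmp14, the membrane-type MMP that activates pro-MMP2, had a mean under the filter, at 0.08, 0.15 and 0.26 RPKM in Ctrl and 1.48, 0.85 and 0.83 in icKO. Of the Ctrl samples 1 was at or under the floor of 3 reads, and the groups lay apart by 6.41-fold in their means. Mmp9, the gelatinase of neutrophils and macrophages, was at or under the floor in all 6 samples.

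The metalloproteinase that fell had the highest mean of the MMPs in Ctrl. Mmp15, another membrane-type MMP, was 17.3, 24.0 and 25.2 RPKM in Ctrl and 2.32, 2.97 and 4.92 in icKO, a 6.52-fold lower mean (log2 fold change -2.72, SE 0.25, limma adjusted p = 1.17e-05, and -3.25 after scaling). The highest icKO sample was well under the lowest Ctrl sample. Mmp11, a secreted MMP of stromal cells, was 1.21, 1.31 and 1.43 RPKM in Ctrl and 1.17, 1.28 and 1.29 in icKO, with overlapping groups (-0.07, adjusted p = 0.721, and -0.57 with an adjusted p of 0.0149 after scaling), and it is named here after its values were seen. The summed RPKM of the 23 MMP genes as deposited was 26.4 ± 4.71 in Ctrl and 23.7 ± 1.77 in icKO, with overlapping ranges. This sum was not recomputed after scaling, which would lower icKO beside Ctrl, so the overlap holds for the deposited scale only. The summed RPKM of the 4 TIMP genes was 18.7 ± 4.56 in Ctrl and 143 ± 12.2 in icKO (SD, n = 3). RNA levels of these families do not give the activity of their proteins, much of which is set by activation of proenzymes.

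Of the 19 ADAMTS genes 4 passed the filter in adult cardiomyocytes. Adamts7, known for cutting cartilage oligomeric matrix protein and for its link to coronary disease, was 4.05, 4.08 and 4.56 RPKM in Ctrl and 0.15, 0.16 and 0.13 in icKO. It fell 29.0-fold, the largest fall among the members tested (log2 fold change -4.14, SE 0.20, limma adjusted p = 4.69e-07, and -4.55 after scaling), and its icKO samples stayed above the floor of at most 0.0466 RPKM. Adamts7 passed through Ctrl alone, and its exons overlap Tbc1d2b on the opposite strand. Adamts2, the main procollagen I N-propeptidase, was 0.53, 0.48 and 0.32 RPKM in Ctrl and 1.86, 1.42 and 1.43 in icKO (3.55-fold, 1.63, SE 0.25, adjusted p = 0.000287). It passed through icKO alone, was under the filter after scaling, and was under it again without any 1 of the icKO replicates, where its ratio of means was 3.22 to 3.72.

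Of the 7 proteoglycan-cutting members 2 passed the filter, and neither was called. Adamts1 had overlapping groups, at 8.55, 15.6 and 7.005 RPKM in Ctrl and 8.36, 14.7 and 7.86 in icKO. Adamts9 was 1.03, 1.10 and 1.46 RPKM in Ctrl and 2.44, 2.12 and 2.53 in icKO, a log2 fold change of 0.94 (SE 0.18, adjusted p = 0.00112) that stayed short of 1 and was 0.43 (adjusted p = 0.059) after scaling. Without Ctrl replicate 3 it was 1.08, and without icKO replicate 2 it was 1.01, and Adamts9 then met the call. Adamts1 and Adamts9 are named after their values were seen.

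The ADAMTS-like proteins lack a protease domain and sit in the microfibril network. Adamtsl5, with a Ctrl mean close to those of Plod1 and Mmp15, was 20.2, 21.3 and 19.9 RPKM in Ctrl and 61.2, 64.1 and 57.5 in icKO. The groups lay far apart, and it rose 2.98-fold (log2 fold change 1.57, SE 0.08, limma adjusted p = 4.69e-07, and 1.03 after scaling). Adamtsl4, which binds fibrillin and is known from the zonule of the eye lens, moved the other way: 14.4, 16.2 and 12.4 RPKM in Ctrl and 4.59, 5.12 and 6.05 in icKO, without overlap. It fell 2.72-fold (-1.43, SE 0.14, adjusted p = 1.36e-05, and -1.96 after scaling).

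All 5 lysyl oxidase genes had every icKO sample above every Ctrl sample. So did 62.0% of all genes tested, among which were Lox, Loxl1 and Loxl3. Of all genes under the filter, among which were Loxl2 and Loxl4, 14.4% did. Lox itself was 0.07, 0.04 and 0.08 RPKM in Ctrl, each above the floor of its own library, and 2.75, 2.67 and 1.49 in icKO. The floor for Lox was up to 0.0529 RPKM. The ratio of means was 37.6, and the log2 fold change on the scale with 0.1 added was 3.86 (SE 0.34, limma adjusted p = 8.56e-06). Lox passed through icKO alone and was under the filter after scaling. Leaving out icKO replicate 1 or 2 put it under the filter too, where its ratio of means was 33.9 or 34.6.

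Loxl1, which crosslinks elastin, was 0.72, 0.66 and 0.44 RPKM in Ctrl and 2.78, 1.86 and 2.17 in icKO (3.72-fold, 1.75, SE 0.24, adjusted p = 0.000142, and 1.25 after scaling), and it passed through icKO alone. Loxl3 was 1.06, 1.42 and 1.003 RPKM in Ctrl and 3.50, 3.04 and 3.05 in icKO (2.75-fold, 1.40, SE 0.17, adjusted p = 6.7e-05), but 0.89 after scaling, short of the call. Exons of Loxl3 overlap Htra2 on the opposite strand. Loxl2, which crosslinks basement membrane and fibrillar collagens, was 0.07, 0.12 and 0.14 RPKM in Ctrl and 1.03, 1.37 and 1.11 in icKO, and Loxl4 was 0.21, 0.18 and 0.21 in Ctrl and 0.78, 0.53 and 0.94 in icKO. Both had a mean under the filter, and 1 Loxl2 Ctrl sample was at or under the floor. The summed RPKM of the 5 genes went from 2.14 ± 0.28 to 9.69 ± 1.06 (SD, n = 3).

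The enzymes that hydroxylate collagen inside the cell held 2 of the calls that depended on the scaling. Plod3, the lysyl hydroxylase that also adds sugars, was 4.39, 5.04 and 4.50 RPKM in Ctrl and 12.7, 12.1 and 12.4 in icKO (2.67-fold, log2 fold change 1.40, SE 0.10, limma adjusted p = 2e-06). P4ha2 was 10.8, 10.46 and 12.1 RPKM in Ctrl and 24.5, 24.4 and 23.2 in icKO (2.16-fold, 1.11, SE 0.09, adjusted p = 4.87e-06). Both calls were lost after scaling, at 0.87 and 0.57, and exons of Plod3 overlap Znhit1 on the opposite strand.

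Plod1, which hydroxylates helical lysines, was 21.4, 22.2 and 22.2 RPKM in Ctrl and 41.7, 38.2 and 45.3 in icKO, with a log2 fold change of 0.92 (SE 0.09, adjusted p = 1.14e-05) that was short of 1. P4ha1, the main alpha subunit in most cells, was 7.91, 6.86 and 10.4 RPKM in Ctrl and 12.1, 13.6 and 15.4 in icKO (0.71, SE 0.16, adjusted p = 0.00273, and 0.17 after scaling). Plod2, which hydroxylates telopeptide lysines, was 5.63, 7.56 and 5.93 RPKM in Ctrl and 7.84, 8.03 and 7.52 in icKO, with groups that overlapped and a fold change of 0.30 that turned to -0.24 after scaling. P4ha3 had all Ctrl samples at or under the floor and was 0.15, 0.13 and 0 RPKM in icKO, so no fold is given. The plot of log2 fold changes under both scalings shows the shift for every gene tested.

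**Figure D2:**
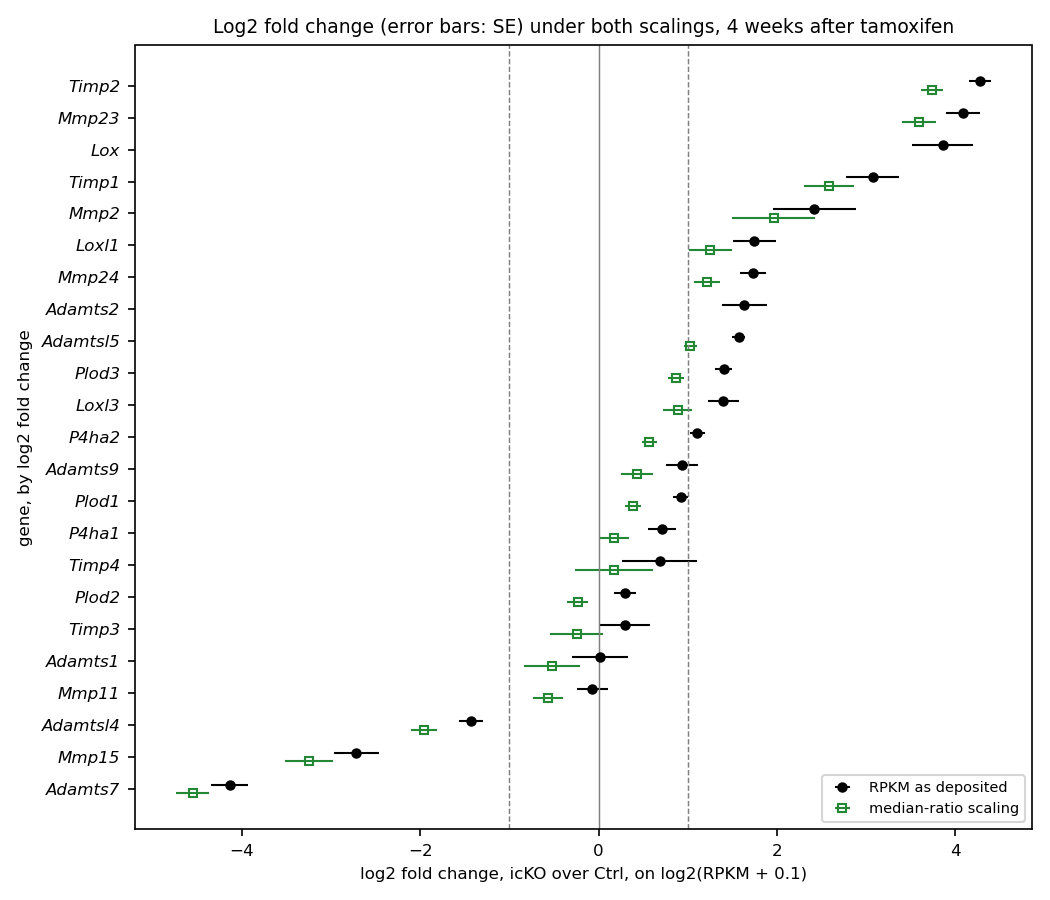
Log2 fold change (icKO over Ctrl, on log2(RPKM + 0.1)) with its SE for the 23 members tested in adult cardiomyocytes, on RPKM as deposited (filled circles) and after median-ratio scaling (open squares), with dashed lines at 1 and -1. Scaling moved every point to the left: Plod3, P4ha2 and Loxl3 crossed the line at 1, while Timp2 stayed at 3.74 and Adamts7 at -4.55, and Lox and Adamts2 were under the filter and have no square.

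Most members near zero in adult cardiomyocytes were MMPs. At or under the floor of 3 reads in all 6 samples were 14 members: Mmp1a, Mmp1b, Mmp7, Mmp8, Mmp9, Mmp10, Mmp12, Mmp13, Mmp20, Mmp25, Mmp27, Adamts13, Adamts16 and Adamts18, of which 8 were listed at 0 throughout. These include all 4 collagenases (Mmp1a, Mmp1b, Mmp8 and Mmp13) and the macrophage elastase Mmp12. Mmp1a and Mmp1b were listed at 0 throughout, while Mmp8, Mmp12 and Mmp13 held values of up to 0.048, 0.017 and 0.042 RPKM, and differences at such levels were not detectable at this depth. Of the 39 members under the filter, 13 had every icKO sample above every Ctrl sample and 3 had every icKO sample below. Another 9 overlapped, beside the 14 at or under the floor. Among all 11258 genes under the filter, with those at the floor included, 14.4% had every icKO sample above and 5.96% below.

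With no filter on RPKM, 8 of the 39 were called higher and 2 lower. Of all 20775 genes, with those past the filter included, 15.8% were called higher and 5.21% lower. The share among genes under the filter alone was not computed, so these percentages are not a like background for the 39. Apart from Mmp14, Loxl2 and Loxl4, the members called in the fit with no filter are named here after their values were seen. Mmp14 had a log2 fold change of 2.14 in that fit (adjusted p = 0.0103), Loxl2 2.6003 (adjusted p = 0.000864) and Loxl4 1.48 (adjusted p = 0.00705). Adamtsl2, known for its role in TGF beta and microfibril biology, was 0.07, 0.09 and 0.13 RPKM in Ctrl and 1.65, 0.79 and 1.26 in icKO (2.73, adjusted p = 0.00249). Adamts4 and Adamts20 had all Ctrl samples at or under the floor and reached 0.24 RPKM in 1 icKO sample each. Adamts10 (1.115) and Adamtsl3 (1.14) lost the call after scaling, at 0.70 and 0.85, while the other 6 kept it. The falls were Adamts15, at 0.64, 0.91 and 0.73 RPKM in Ctrl and 0.12, 0.16 and 0.14 in icKO, and Adamts3, at 1.41, 0.94 and 0.85 in Ctrl and 0.47, 0.43 and 0.42 in icKO.

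At E10.5 no member was called in the whole heart. Of the 28 members that passed the filter, 0 were called higher and 0 lower by limma, against 0.239% and 0.542% of all genes tested, and after median-ratio scaling again 0 and 0, against 0.322% and 0.377%. At an unadjusted p under 0.05 there were 10 members, 7 with a positive and 3 with a negative log2 fold change, and 15 after scaling. The share of all genes past that unadjusted threshold was not computed at either stage. Such counts, here and for the gene lists below, therefore have no background beside them. The median log2 fold change of the members was 0.12, against -0.13 over all genes, and 0.24 against -0.01 after scaling. In 8 of the 28 every cKO sample was above every Ctrl sample and in 3 every cKO sample was below, against 6.50% and 22.6% of all genes tested. The plot of E10.5 values by sample shows how close the groups lay.

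**Figure D3:**
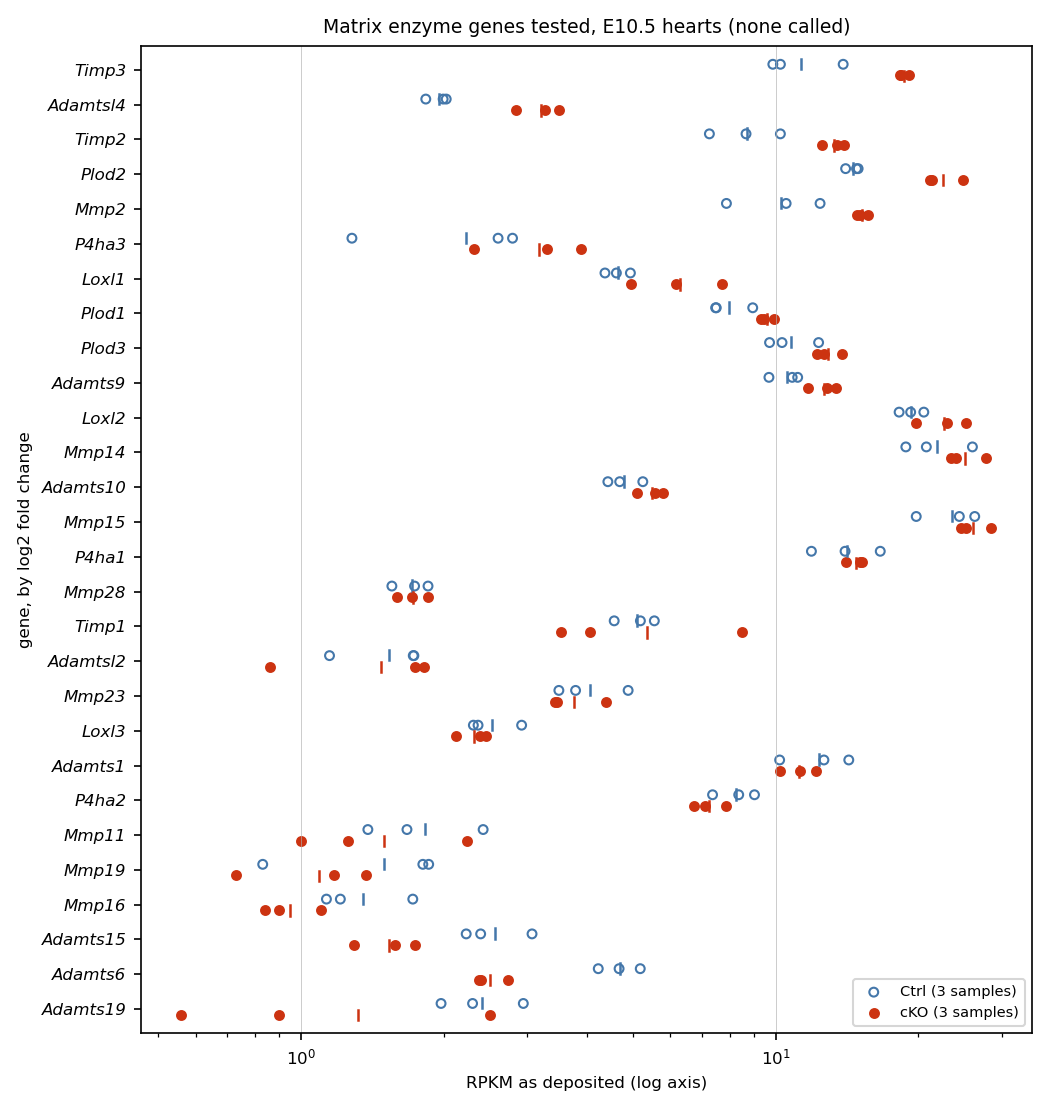
RPKM (log axis) of the 28 members tested in E10.5 hearts, ordered by log2 fold change, with 3 Ctrl samples as open circles, 3 cKO samples as filled circles and each group's mean as a short line. No gene was called. Timp3, Adamtsl4, Timp2, Plod2, Mmp2, Loxl1, Plod1 and Adamts9 had every cKO sample above every Ctrl sample, Adamts6, Adamts15 and Mmp16 had every one below, and 17 of the 28 genes overlapped.

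At this stage 4 of the 28 members tested passed 0.05 in adjusted p but stayed short of 1 in log2 fold change. Of all 10885 genes tested, 470 had a limma adjusted p under 0.05, whatever their fold change. None of the 4 kept an adjusted p under 0.05 in every fit that left out 1 library, where the highest limma value was 0.096 to 0.127. With no filter on RPKM their limma adjusted p was 0.097 to 0.182. Timp3 was 13.9, 9.87 and 10.2 RPKM in Ctrl and 18.3, 18.4 and 19.1 in cKO (1.64 times the Ctrl mean, log2 fold change 0.73, SE 0.14, limma adjusted p = 0.0275). Timp2 was 10.2, 7.26 and 8.67 RPKM in Ctrl and 13.9, 13.5 and 12.6 in cKO (0.62, SE 0.14, adjusted p = 0.0414). Plod2 was 14.9, 14.1 and 14.8 RPKM in Ctrl and 21.4, 24.9 and 21.2 in cKO (0.62, SE 0.11, adjusted p = 0.024). In all 3 genes the groups lay apart, and the values were higher in cKO.

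Adamts6, a protease whose loss is known to cause heart malformations in mice, was the member with an adjusted p under 0.05 in the other direction. It was 4.23, 4.68 and 5.19 RPKM in Ctrl and 2.73, 2.37 and 2.40 in cKO (-0.88, SE 0.15, adjusted p = 0.0217), with no overlap, and it is named after its values were seen. Adamts15 also lay lower, at 2.39, 3.07 and 2.23 RPKM in Ctrl and 1.74, 1.29 and 1.58 in cKO (-0.70, adjusted p = 0.089). Adamts19 had the log2 fold change farthest from 0 among the 28, at 2.94, 1.97 and 2.30 RPKM in Ctrl and 0.90, 0.56 and 2.498 in cKO, but cKO replicate 3 stood above 2 of the Ctrl samples (-1.05, SE 0.44, adjusted p = 0.187). Without cKO replicate 3 it was -1.61 (adjusted p = 0.0196) and met the call.

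Mmp2 was 12.4, 7.88 and 10.53 RPKM in E10.5 Ctrl and 15.1, 15.6 and 14.8 in cKO, with the groups apart (0.58, SE 0.16, adjusted p = 0.0652, and 0.70 with an adjusted p of 0.0224 after scaling). Mmp14 was 26.0, 18.8 and 20.8 RPKM in Ctrl and 23.4, 24.0 and 27.7 in cKO, with overlap (0.20, adjusted p = 0.40). Mmp15 was 24.4, 19.8 and 26.3 RPKM in Ctrl and 25.2, 28.5 and 24.6 in cKO (0.16, adjusted p = 0.493), and Mmp23 was 4.89, 3.79 and 3.50 in Ctrl and 4.402, 3.46 and 3.43 in cKO (-0.10, adjusted p = 0.764). Neither of the last pair, both called in adult cardiomyocytes, had groups apart at E10.5.

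Timp1 was 4.57, 5.55 and 5.19 RPKM in E10.5 Ctrl and 4.06, 3.53 and 8.48 in cKO, where 1 cKO sample was above and 2 were below all Ctrl samples (-0.04, SE 0.28, adjusted p = 0.954). Timp4 was 0.02, 0.11 and 0 RPKM in Ctrl and 0, 0.15 and 0 in cKO, so 2 samples of each group were at or under the floor. Among the crosslinking enzymes Loxl2 was the most abundant at this stage, at 20.5, 19.3 and 18.2 RPKM in Ctrl and 22.9, 19.8 and 25.2 in cKO with overlap (0.22, adjusted p = 0.297). Loxl1 was 4.62, 4.95 and 4.37 RPKM in Ctrl and 6.17, 7.73 and 4.96 in cKO (0.41, adjusted p = 0.182), the groups apart by a narrow margin, and Loxl3 overlapped (-0.11, adjusted p = 0.735). Lox was 0.37, 0.03 and 0.12 RPKM in Ctrl and 0.47, 0.59 and 0.39 in cKO, and Loxl4 was at most 0.281 RPKM in any sample, both under the filter.

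Plod1 was 8.95, 7.48 and 7.502 RPKM in E10.5 Ctrl and 9.93, 9.31 and 9.48 in cKO, without overlap (0.26, adjusted p = 0.213). Plod3 was 12.3, 10.3 and 9.71 RPKM in Ctrl and 12.3, 12.7 and 13.8 in cKO, with overlap (0.26, adjusted p = 0.234). P4ha1 (0.07, adjusted p = 0.775), P4ha2 (-0.19, adjusted p = 0.396) and P4ha3 (0.53, adjusted p = 0.311) had overlapping groups, with Ctrl means of 14.2, 8.25 and 2.23 RPKM. The summed RPKM of all 62 members was 225 ± 16.8 in Ctrl and 261 ± 7.37 in cKO at E10.5 (SD, n = 3).

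Of the 34 members under the filter at E10.5, 12 were at or under the floor in all 6 samples, and 11 of these were also there in adult cardiomyocytes: Mmp1a, Mmp1b, Mmp7, Mmp8, Mmp10, Mmp12, Mmp13, Mmp20, Mmp27, Adamts13 and Adamts16. The remaining one was Mmp3, a stromelysin with broad substrates, which in adult icKO reached 0.30 and 0.20 RPKM in 2 samples. Of the 34 under the filter, 3 had every cKO sample above every Ctrl sample (Adamts12, Adamtsl1 and Lox) and 1 had every cKO sample below (Adamts17). Another 18 overlapped, beside the 12 at or under the floor. Among all 9890 genes under the filter, with those at the floor included, 2.08% had every cKO sample above and 4.04% below. Mmp9 was 0.06, 0.08 and 0 RPKM in Ctrl and 0.14, 0.04 and 0 in cKO.

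Across the stages, 17 members were tested in both tables, 11 at E10.5 alone, 6 in adult cardiomyocytes alone and 28 in neither. The stages differ in tissue, age and Cre line and were normalized in separate tables, so the difference between their effects was not tested, and levels are set side by side only. Timp2 lay higher in the knockout at both stages, by 0.62 and by 4.27 on the log2 scale. Adamtsl4 was 1.83, 2.02 and 1.99 RPKM in E10.5 Ctrl and 3.50, 3.27 and 2.84 in cKO (0.69, SE 0.17, adjusted p = 0.053, and 0.80 with an adjusted p of 0.0407 after scaling), opposite in sign to its fall in adult icKO. Adamtsl5, at 19.9 to 64.1 RPKM in adult cardiomyocytes, was at most 0.576 RPKM at E10.5.

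The matrix proteins on which these enzymes act were followed through a list of 16 genes. In adult cardiomyocytes 14 were tested, but 10 of them passed the filter through icKO alone (Col1a1, Col1a2, Col3a1, Col5a1, Col5a2, Col6a1, Col6a2, Fn1, Eln and Fbn1), so that they could enter the test only by being higher there. The 4 that passed in both groups, Col4a1, Col4a2, Dcn and Sparc, were called higher as deposited, where 28.0% of all genes were, and Col4a1 and Sparc were called after scaling, where 11.3% were. Col1a1, the alpha1 chain of collagen I, rose 26.3-fold (4.43, limma adjusted p = 1.23e-06), and Col5a2 rose 17.9-fold (3.65). Sparc, a collagen-binding matricellular protein, went from 9.84 to 12.1 RPKM in Ctrl to 86.9 to 102 RPKM in icKO, and Col4a1 of the basement membrane from 15.4 to 26.2 RPKM to 75.9 to 92.7 RPKM. The 10 genes that passed through icKO alone were each called higher under both scalings. At E10.5, 14 were tested and 0 were called by limma under either scaling, with 6 at an unadjusted p under 0.05 as deposited and 11 after scaling.

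Genes that fold and process collagen were called in both directions in adult icKO. Of 14 tested in a list of 18, 5 were called higher (P4hb, P3h2, Bmp1, Pcolce2 and Mia3) and 3 lower (P3h4, Crtap and Fkbp10), and after scaling 2 higher (P3h2 and Pcolce2) and 3 lower. Over all genes 28.0% were called higher and 8.45% lower, and 11.3% and 15.9% after scaling, and P3h2 passed the filter through icKO alone. P4hb, the beta subunit that pairs with P4ha proteins, went from 42.7 to 48.7 RPKM in Ctrl to 102 to 130.2 RPKM in icKO (1.35, adjusted p = 3.7e-06). Crtap and P3h4, which belong to the complexes that modify prolines and lysines of procollagen, fell by 1.51 and by 1.53 on the log2 scale. Of 13 tested in a list of 23 other matrix proteases and inhibitors, 7 were called higher (Furin, Adam9, Adam10, Adam15, Ctsb, Ctsl and Lrp1) and 0 lower as deposited, against 28.0% and 8.45% of all genes. By limma 2 of the 13 had a negative log2 fold change at an unadjusted p under 0.05. After scaling Adam9 and Ctsl were called higher, against 11.3% of all genes, and Bsg was called lower. Lrp1 passed the filter through icKO alone. Furin, a convertase that activates membrane-type MMPs, rose by 1.10, which was 0.56 after scaling. At E10.5 these 2 lists held 0 calls by limma as deposited, with 3 and 6 genes at an unadjusted p under 0.05, and 1 call after scaling, Serpine2 (1.002).

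Markers of fibroblasts and of cardiomyocytes differed between the adult groups. The 8 fibroblast markers summed to 4.106 to 7.34 RPKM in Ctrl and 42.6 to 57.0 RPKM in icKO, without overlap. Of the 3 that were tested, Col1a1 and Postn passed the filter through icKO alone and were called higher under both scalings, and Dcn passed in both groups and was called higher as deposited alone. Col1a1 and Dcn are also in the substrate list. None of the 8 was at 0 in every sample. Tcf21 was at or under the floor in all 3 Ctrl samples and 0.34 to 0.61 RPKM in icKO, and Pdgfra was 0.24 to 0.28 RPKM in Ctrl and 0.40 to 1.64 in icKO. Postn, a marker of activated fibroblasts, alone was 0.25 to 0.50 RPKM in Ctrl and 22.0 to 26.2 RPKM in icKO. The 6 endothelial markers summed to 7.68 to 21.3 RPKM in Ctrl and 20.3 to 34.1 in icKO with Emcn called higher as deposited and 0 after scaling, where 1 gene had an unadjusted p under 0.05 by limma. The 6 macrophage markers summed to 1.003 to 1.45 RPKM in Ctrl and 2.70 to 4.29 in icKO, with none reaching the filter. Of the 6 neutrophil markers, 4 were at 0 in all samples, and the list summed to 0 to 0.152 RPKM in Ctrl and 0.376 to 0.691 in icKO. The 6 mural markers summed to 60.8 to 68.5 RPKM in Ctrl and 21.9 to 44.1 in icKO, a sum set by Abcc9, a channel subunit that cardiomyocytes also express and that was called lower. Without Abcc9 the other 5 summed to 5.82 to 15.05 RPKM in Ctrl and 19.04 to 36.5 in icKO, with Cspg4 called higher under both scalings and Pdgfrb, which passed through icKO alone, as deposited alone. The 8 cardiomyocyte markers summed to 23496 to 24947 RPKM in Ctrl and 8533 to 11581 RPKM in icKO, with 5 called lower (6 after scaling) and 1, Nppa, higher. Beside the calls of all these markers, 28.0% of all genes tested were called higher and 8.45% lower, and 11.3% and 15.9% after scaling. In such bulk samples a change in the number of cells of a type and a change in RNA per cell cannot be told apart, and the part of other cell types in the members' values was not tested.

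**Figure D4:**
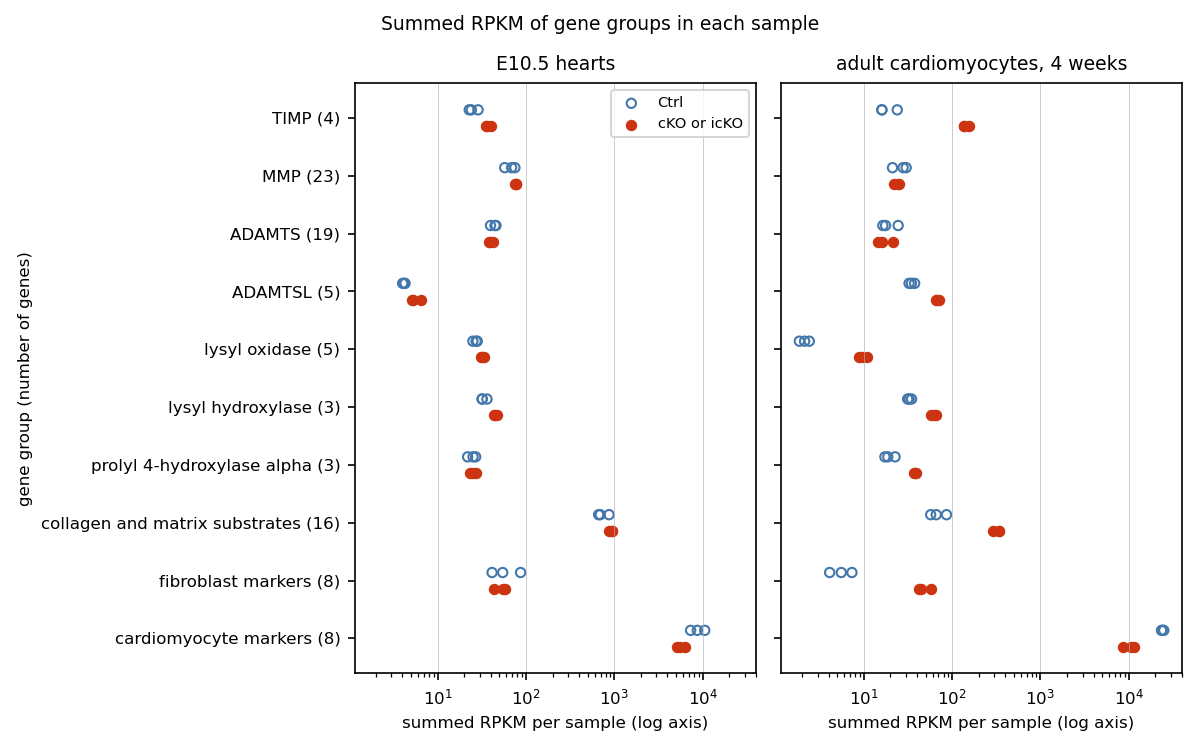
Summed RPKM per sample (log axis) of the 7 member families, the collagen and matrix substrate list and the fibroblast and cardiomyocyte marker lists, in E10.5 hearts (left) and adult cardiomyocytes (right), with 3 Ctrl samples as open circles and 3 cKO or icKO samples as filled circles; the number of genes is in parentheses. In the adult panel, on RPKM as deposited, the MMP and ADAMTS sums overlap between the groups and every other sum stands apart. The TIMP sum lies at 16.02 to 23.9 RPKM in Ctrl and 136 to 157 in icKO. Sums were not recomputed after median-ratio scaling, so overlap and separation are stated for the deposited scale only.

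At E10.5 the fibroblast markers summed to 41.4 to 87.0 RPKM in Ctrl and 43.4 to 57.9 in cKO, with overlap, and the endothelial markers to 118 to 167 and 143 to 152. The cardiomyocyte markers summed to 7325 to 10584 RPKM in Ctrl and 5105 to 6313 in cKO. These 3 lists held 0 calls at E10.5 by limma under either scaling, with 1 of 5, 3 of 8 and 0 of 6 genes tested at an unadjusted p under 0.05 for fibroblast, cardiomyocyte and endothelial markers as deposited, and 2, 3 and 3 after scaling. The 7 erythroid markers summed to 170 to 506 RPKM in Ctrl and 238 to 1494 in cKO, where cKO replicate 1 held the highest value.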

How the data were processed

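RNA was sequenced from 12 libraries in 4 groups of 3, made from total RNA after depletion of ribosomal RNA. Per the submitters' processing notes, the authors trimmed reads with cutadapt 2.6, aligned them to mm10 with STAR 2.5.3a, and used HOMER 4.11.1 and DESeq2 1.12.4. The deposited values are RPKM, in 1 table for each stage, and the number of columns of samples from elsewhere was 0. The gene annotation and the use of strand in counting are not given in the sources used here. The authors' own columns of group means, fold changes and false discovery rates were not used.

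The tables were fitted separately by limma 3.58.1 in R 4.3.3 (lmFit, trended eBayes), taking log2(RPKM + 0.1) of genes with a mean RPKM above 1 in the 6 samples, with Benjamini-Hochberg adjustment over all of them. Calls required an adjusted p under 0.05 together with a log2 fold change past 1 in size. A pseudocount understates the change of low genes. The fit was repeated after median-ratio scaling. Depth was estimated from the steps between low values, and floors from it and from the length of the longest annotated transcript with a RefSeq mRNA, and scripts were run in Python 3.11.15 after being tested on simulated data. Alternatives were other pseudocounts, filters, normalizations, sample weights, a replicate block and leaving out each library. A fit with neither filter nor deposited scale was chosen after seeing the data.

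All members of the Timp, Lox, Plod and P4ha families, Mmp2, Mmp9, Mmp14 and every other member called at either stage were named with values, and genes of the pathway lists where called, except that the result of 1 list gene is not reported here. The rule for members reads symbols only, but it and the lists were chosen with earlier results of these data known. Groups came from the labels. Gene overlaps are from GENCODE M21 on GRCm38.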

Additional observations from a re-analysis of the deposited data

Results flagged for a closer look

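Adamtsl4, which encodes an ADAMTS-like protein of the microfibril network, had opposite directions at the 2 stages. Its log2 fold change was 0.69 in E10.5 cKO hearts, where every cKO sample was above every Ctrl sample, but it was not called there (limma adjusted p = 0.053). In adult icKO cardiomyocytes it was -1.43 and called lower (limma adjusted p = 1.36e-05), and every icKO sample was below every Ctrl sample. The difference between the stages was not tested, and stage, tissue and Cre line cannot be told apart.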

How the results depend on the processing

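Of the 643 single-gene values recomputed, 609 kept direction and side of the threshold, 12 lost the call and 22 changed sign, all 22 in genes that were not called. A setting in which a gene fell under the filter gave no value and is not among the 643. Calls lost in that way are therefore not among the 12, such as those of Adamts2, Lox and Mmp2 without icKO replicate 1. The calls that Adamts9 and Adamts19 gained in some settings are outside the 643 as well. In adult cardiomyocytes the 12 members called higher became 5 with a mean RPKM above 5, 7 after median-ratio scaling and 20 with no filter, and 9 to 13 when 1 library was left out. The 3 called lower became 2 with a mean RPKM above 5 and 5 with no filter, with or without scaling. At E10.5 the 0 called lower became 1, Adamts19, with sample weights, and 0 to 1 when 1 library was left out (1 without cKO replicate 3). With the replicate number as a block the counts were 12 higher and 3 lower in adult cardiomyocytes and 0 and 0 at E10.5. To look for pairing, each gene's group mean was subtracted from its log2 values, and the deviations of Ctrl and knockout samples were correlated. Deviations of same-numbered samples correlated at 0.0124, 0.101 and -0.0698 at E10.5 and at 0.153, 0.0433 and 0.045 in adult cardiomyocytes. The numbers were therefore not taken to pair samples.

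Signs changed as follows, and the cause was not tested. Mmp23 at E10.5 was 0.0155 after median-ratio scaling with or without the filter, 0.0123 with quantile normalization, 0.0716 with sample weights and 0.0695 when the 20 most abundant genes were left out of the scale, and -0.22 to 0.0374 without 1 library. Timp1 at E10.5 was 0.0809 after scaling with or without the filter, 0.0741 with quantiles and 0.135 without the 20 genes, and -0.42 to 0.20 without 1 library. Loxl3 at E10.5 was 0.0527 without the 20 genes, and P4ha1 was -0.0442 to 0.20 without 1 library. In adult cardiomyocytes Plod2 was -0.24 after scaling with or without the filter and -0.27 with quantiles, and Timp3 was -0.25 and -0.27, and -0.0048 to 0.55 without 1 library. The list of other matrix proteases called higher went from 7 to 2, and that of collagen assembly from 5 to 2, after scaling. Low members are limited by depth, since a value of 3 reads is the floor.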
